A study of Mus musculus with 8 samples.

Results

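The proteasome subunit genes were taken as every gene of the count table whose symbol is Psm, 1 letter from a to f and a number. This rule gave 44 of 25815 genes, and 42 of the 44 had enough counts to be tested. They are 8 genes of the 20S alpha ring, 7 constitutive genes of the 20S beta ring, 4 immune and thymic beta genes, 6 ATPases and 11 non-ATPase subunits of the 19S cap, 3 chaperones of 19S assembly, and 5 activators or regulators of the 20S core. The values are read counts from poly(A)-selected RNA of total brain, taken from untreated mice at postnatal day 50. The mutant group, D50A, held 5 libraries from mice carrying Cstf2D50A, an allele that puts an alanine in the place of an aspartate in CSTF2, an RNA-binding protein of the polyadenylation machinery. The wild-type group, WT, held 3 libraries from littermates. Both groups share a C57BL/6NCrl background made by 4 backcross generations followed by breeding within the colony, and sex, litter and batch are not among the labels. The libraries are numbered by order of deposit, which ties no animals together. The library numbered D50A 3, titled D0169Mut, stood apart from the others, so each comparison was made with all 8 libraries and again without it.

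The proteasome degrades proteins that carry ubiquitin chains. Its 20S core is a barrel of alpha rings, which gate the entrance, and beta rings, in which Psmb5, Psmb6 and Psmb7 hold the active sites. The 19S cap binds ubiquitin, unfolds the substrate with a ring of ATPases and feeds it into the core. In cells exposed to interferon, Psmb8, Psmb9 and Psmb10 take the places of the constitutive catalytic subunits and form the immunoproteasome. In neurons the proteasome is known for the turnover of synaptic proteins. When proteasome activity falls, the transcription factor Nrf1, encoded by Nfe2l1, raises the subunit genes together by binding antioxidant response elements in their promoters.

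Total counts ran from 13675945 in D50A 3 to 24802272 in D50A 1. In D50A 3, ribosomal protein genes took 7.44% of the counts and mitochondrially encoded genes 11.9%, against 1.22% to 1.56% and 4.08% to 5.14% in the other 7 libraries. Levels below are CPM, the counts of a gene relative to the size of its library. Library sizes were scaled by TMM, which gives each library a factor on the assumption that most genes do not differ. Markers of neurons (8 genes) summed to 5083 to 5638 CPM over the 8 libraries, as the label of brain requires. The sum was 5406 to 5638 CPM in WT, 5326 CPM in D50A 3 and 5083 to 5514 CPM in the other D50A libraries. D50A 3 was the highest library for 4 of these markers and the lowest for 4. Markers of cerebellar granule cells (10 genes) summed to 238 to 245 CPM in WT and 254 CPM in D50A 1. In the other D50A libraries the sum was 857 to 1111 CPM. Gabra6 had 0, 53.2, 108, 108 and 103 CPM in D50A 1 to 5 and 0, 0.304 and 0.119 CPM in WT. Cbln3 had 0.623, 151, 118, 239 and 239 CPM and 0.818, 0.861 and 1.37 CPM in the same order. All 10 genes had fold changes above 0 with and without D50A 3, with none called. How much cerebellum each sample held is not among the labels. It cannot be separated from genotype in these comparisons, and its part in the fold changes was not tested. In RNA of a whole tissue, fewer cells of a type and less RNA per cell cannot be told apart.

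No proteasome gene differed between the genotypes by the edgeR quasi-likelihood test at an adjusted p under 0.05. With 8 libraries 0 of 42 members were called, beside 0% of 16810 genes, and 0 members had an unadjusted p under 0.05, beside 420 genes or 2.5%. Without D50A 3 again 0 of 42 were called, beside 0% of 16754 genes, and 0 members had an unadjusted p under 0.05, beside 1574 genes or 9.39%. The smallest Benjamini-Hochberg adjusted p of a member was 0.837 with 8 libraries and 0.613 without D50A 3, both by edgeR. DESeq2 called 0 members, beside 0.2% of genes with 8 libraries and 0.825% without D50A 3, and gave no adjusted p for 4 members and 1 member. limma-voom with sample quality weights also called 0, beside 3.08% and 3.04% of genes. Without both D50A 1 and D50A 3, edgeR called 6.42% of 16591 genes and 0 members, and 9 of 42 members had an unadjusted p under 0.05, beside 22.2% of genes. D50A 1 was the D50A library with granule cell markers near those of WT, so the groups of that fit also differed throughout in these markers. The spread behind these p-values is that between libraries of separate mice.

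The high values of the members came from 1 library. The sum over the 44 genes was 2967, 2965, 8181, 3154 and 3110 CPM in D50A 1 to 5, and 2877, 3009 and 3004 CPM in WT 1 to 3. As shares of all counts these were 0.307%, 0.308%, 0.647%, 0.331% and 0.326%, against 0.291%, 0.308% and 0.307%. D50A 3 was thus above every other library on both scales, and the remaining D50A libraries overlapped with WT. In D50A 3, 37 of the 42 tested members had their highest level of the 8 libraries, beside 40.0% of all genes. Psmd3, Psme4 and Psmf1 had their lowest there, beside 44.4% of all genes. Levels in D50A 3 were more than 2 times the WT mean for 30 of 42 members, beside 20.6% of all genes. They were under 0.5 times the WT mean for 0 of 42, beside 27.9%. The scaling mattered for these counts. Library size alone puts the median gene of D50A 3 at -0.47 (log2) against the WT mean in place of -0.10. On that scale 22 of 42 members were more than 2 times the WT mean, beside 13.1% of all genes. The range of ratios was then 0.424 to 4.28, so the count of 0 members under 0.5 times the WT mean did not hold.

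**Figure D1:**
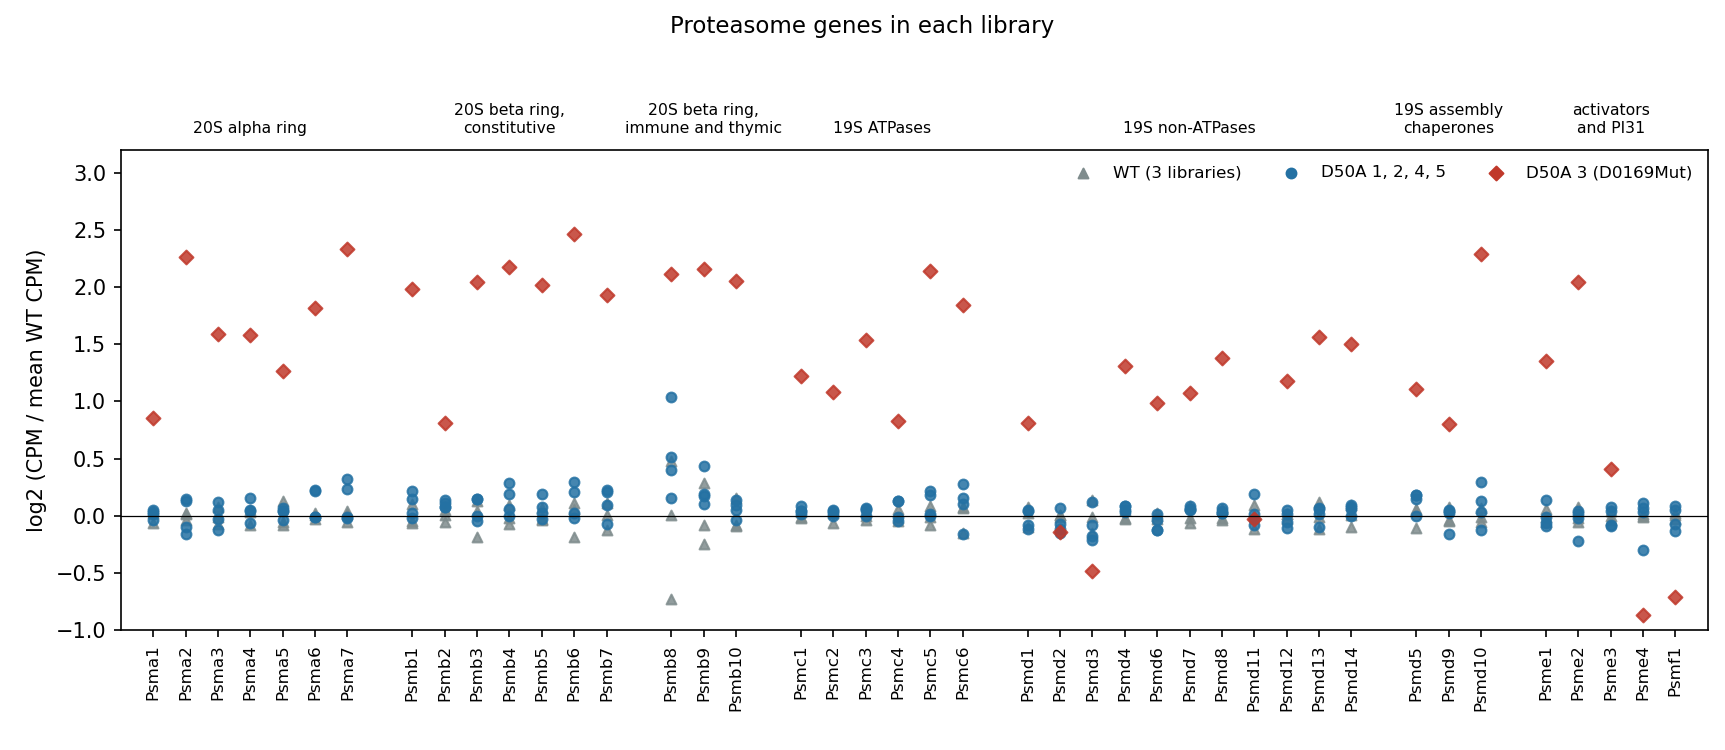
Level of each of the 42 tested proteasome genes in each library, as log2 of CPM over the mean WT CPM, with genes grouped by role and each point 1 library. D50A 3 lies above the WT mean for 37 genes, with ratios of up to 5.53, and the points of the other libraries gather around 0.

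The fold changes followed that library. With 8 libraries the median log2 fold change of the members, D50A over WT, was 0.45, and 38 of 42 were above 0, beside 48.6% of all genes, whose median was -0.01. Without D50A 3 the median was 0.06, and 34 of 42 were above 0, beside 49.4% of all genes, whose median was -0.00. The median over members of the log2 ratio to the WT mean was 0.01, 0.02, 1.44, 0.09 and 0.05 in D50A 1 to 5, and -0.04, 0.02 and 0.01 in WT 1 to 3. WT 1 lay below the WT mean for most members, with 10 of 42 above it, and D50A 4 and D50A 5 lay above it for 34 members each. Leaving out WT 1 from the 7 libraries lowered the median to 0.04. Members share libraries and are not replicates, so these counts describe the libraries and carry no test.

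Leaving out D50A 3 also narrowed what the data allow. The 95% intervals of the fold change then lay within 1.3-fold in either direction for 40 of 42 members and within 1.2-fold for 28. With all 8 libraries they lay within 1.3-fold for 2 members and within 2-fold for 15. The exceptions at 1.3-fold were Psmb8 and Psmb9, the tested members with the fewest counts (12 to 53 and 22 to 67 per library). These intervals are for each gene alone and are not adjusted for the number of genes.

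**Figure D2:**
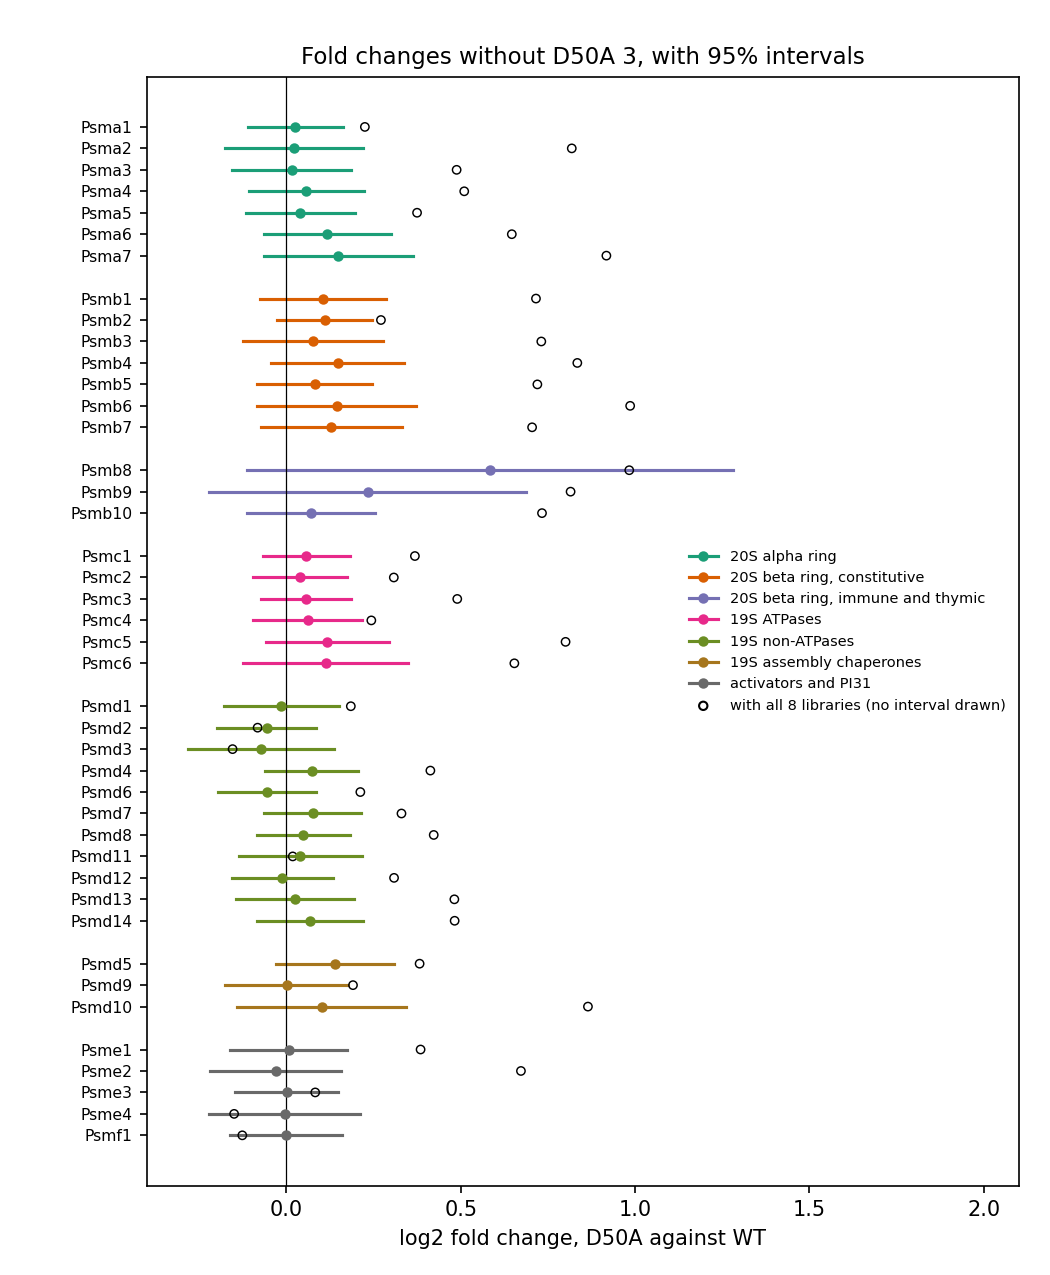
Log2 fold change of each tested member without D50A 3, as points with 95% intervals from the edgeR fit, and with all 8 libraries as a second set of points. The intervals of 40 of 42 members lie within 1.3-fold of no difference, and those of Psmb8 and Psmb9 are wider.

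The alpha ring forms the ends of the 20S barrel. All 7 tested alpha genes had fold changes above 0 in both fits, with none called and medians of 0.51 with 8 libraries and 0.04 without D50A 3. Psma7 (ENSMUSG00000027566, chromosome 2, 180036374 to 180042433, minus strand, mm10), the alpha gene with the highest level per length, had 78.0, 77.6, 397, 98.1 and 92.3 CPM in D50A and 75.4, 79.3 and 81.0 CPM in WT. Psma2, the lowest per length, had 56.5, 59.0, 303, 70.0 and 69.0 CPM in D50A and 61.3, 64.0 and 63.9 CPM in WT. Both genes were high in D50A 3, at 5.05 and 4.80 times the WT mean. In both, D50A 4 and D50A 5 were above the WT range, while D50A 1 and D50A 2 were within it for Psma7 and below it for Psma2. Without D50A 3 the log2 fold change of Psma7 was 0.15 with an SE of 0.10 (edgeR adjusted p = 0.681), and that of Psma2 was 0.02 with an SE of 0.09 (edgeR adjusted p = 0.964). Psma8, which replaces Psma7 in the proteasome of male germ cells, was not tested: it had 3, 4, 4, 8 and 5 counts in D50A and 6, 8 and 1 in WT. Of 4 testis germ cell markers none was at 0 in all libraries, and their sum was 7.28 to 20.5 CPM.

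The constitutive beta genes include the catalytic subunits. All 7 had fold changes above 0 in both fits, again with none called, and their medians were 0.72 with 8 libraries and 0.11 without D50A 3. Psmb5 (ENSMUSG00000022193, chromosome 14, 54614119 to 54618022, minus strand), which carries the chymotrypsin-like activity, had 81.0, 78.2, 322, 91.0 and 83.8 CPM in D50A and 77.8, 83.5 and 77.3 CPM in WT. Psmb6 (ENSMUSG00000018286, chromosome 11, 70525367 to 70527858, plus strand), the caspase-like subunit, had 77.5, 79.6, 434, 96.4 and 90.7 CPM in D50A and 68.8, 81.7 and 84.8 CPM in WT. Psmb7 (ENSMUSG00000026750, chromosome 2, 38588036 to 38644087, minus strand), the trypsin-like subunit, had 115, 129, 462, 139 and 142 CPM in D50A and 111, 122 and 131 CPM in WT. D50A 3 was the highest library for all 3, at 4.04, 5.53 and 3.81 times the WT mean, and D50A 1 and D50A 2 lay within the WT range for Psmb5, Psmb6 and Psmb7. Without D50A 3 their log2 fold changes were 0.08, 0.14 and 0.13, with SEs of 0.07, 0.10 and 0.09. Psmb6 had the highest ratio in D50A 3 of any tested member.

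Psmb4, a structural beta subunit needed to complete the core, had 93.4, 97.6, 424, 114 and 107 CPM in D50A and 88.9, 99.9 and 92.1 CPM in WT. D50A 3 was again the highest, at 4.53 times the WT mean, and without it the gene was at 0.15 ± 0.09 (log2 fold change ± SE, edgeR adjusted p = 0.65). Psmb2 (ENSMUSG00000028837, chromosome 4, 126677630 to 126709714, plus strand), another structural subunit, had 39.2, 38.3, 63.8, 40.05 and 38.4 CPM in D50A and 36.6, 37.6 and 34.9 CPM in WT. Every D50A library was above every WT library for Psmb2, with or without D50A 3, and for no other tested member. With 8 libraries this was 1 of 42 members above and 0 below, beside 3.22% of all genes above and 4.24% below. Without D50A 3 it was the same gene, beside 4.79% above and 5.8% below. With transcript length offsets the log2 fold change of Psmb2 turned to -0.11 with 8 libraries and was 0.04 without D50A 3. The difference in Psmb2 was small, at 0.11 ± 0.06 (log2 fold change ± SE without D50A 3, 95% interval -0.03 to 0.25, edgeR adjusted p = 0.63), and it had the lowest ratio of the constitutive beta genes in D50A 3, 1.75.

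Of the immunoproteasome genes, Psmb8 and Psmb9 were low in these brains and Psmb10 was not. Psmb8 (ENSMUSG00000024338, chromosome 17, 34197721 to 34201454, plus strand), the counterpart of Psmb5, had 2.06, 1.12, 4.35, 1.32 and 1.43 CPM in D50A and 1.40, 0.608 and 1.01 CPM in WT. Psmb9 (ENSMUSG00000096727, chromosome 17, 34181987 to 34187764, minus strand), the counterpart of Psmb6, had 1.56, 1.88, 6.20, 1.48 and 1.58 CPM in D50A and 1.68, 1.16 and 1.31 CPM in WT. Psmb10 (ENSMUSG00000031897, chromosome 8, 105935735 to 105938444, minus strand), the counterpart of Psmb7, had 32.9, 29.9, 128, 33.8 and 31.8 CPM in D50A and 29.2, 34.3 and 28.9 CPM in WT. All 3 were highest in D50A 3, at 4.33, 4.48 and 4.16 times the WT mean, and without it the groups overlapped. Psmb8 had the largest fold change of any member without D50A 3, a log2 value of 0.58 with an SE of 0.31, but its interval of -0.11 to 1.28 held 0 (edgeR adjusted p = 0.613). Psmb9 was at 0.23 with an SE of 0.20 and Psmb10 at 0.07 with an SE of 0.08. Exons of Psmb8 share 498 bases with an antisense gene and those of Psmb9 share 212 bases with Tap1 on the other strand, and no source used here says whether the counting used strand, so reads there cannot be told apart. Psmb11, the beta subunit of thymic cortex, was not tested, with 1, 4, 2, 1 and 0 counts in D50A and 6, 3 and 1 in WT.

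Per kilobase of transcript, each inducible gene can be set against the subunit it replaces. Psmb8 made up 1.39%, 0.782%, 0.741%, 0.798% and 0.936% of the Psmb8 and Psmb5 level in D50A 1 to 5, and 0.9801%, 0.4002% and 0.716% in WT. Psmb9 made up 1.17%, 1.37%, 0.837%, 0.9004% and 1.02% of the Psmb9 and Psmb6 level, and 1.42%, 0.834% and 0.901% in WT. Psmb10 was far nearer to its partner, at 20.2%, 17.0%, 19.7%, 17.7% and 16.6% of the Psmb10 and Psmb7 level, and 18.9%, 19.96% and 16.4% in WT. The groups overlapped for every pair. D50A 3 lay inside the range of the other 7 libraries for all 3 shares, so the inducible and constitutive genes were higher there by like factors.

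**Figure D3:**
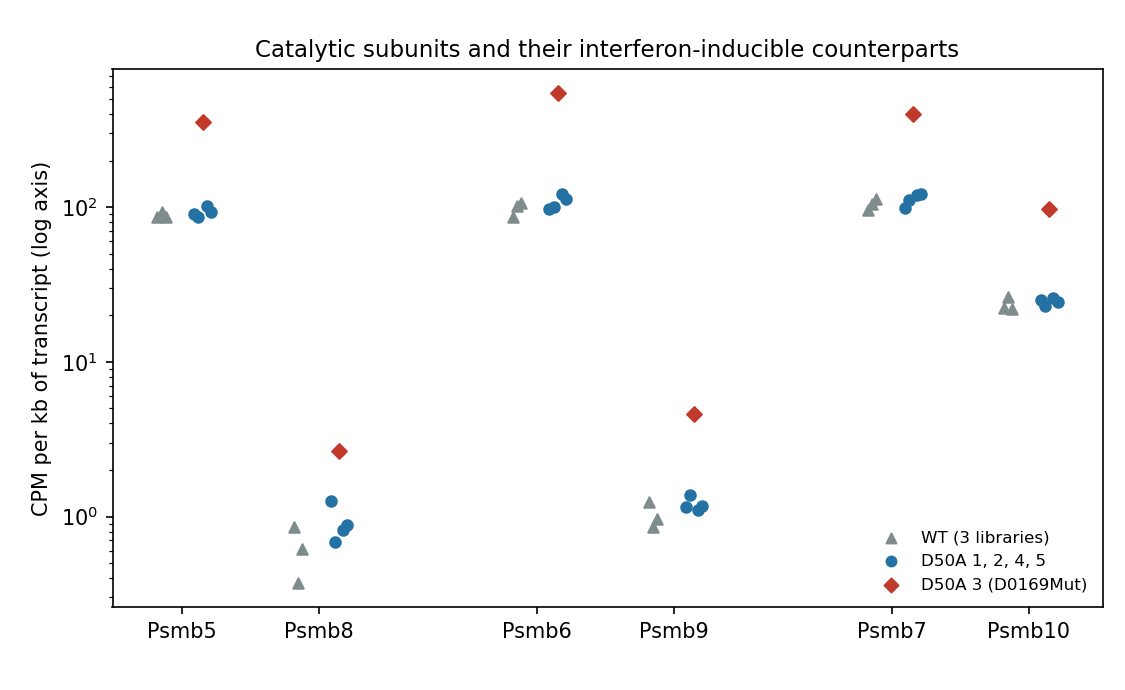
Level of the 3 catalytic subunits and of their inducible counterparts in CPM per kilobase of transcript on a log axis, each point 1 library. Psmb8 and Psmb9 lie far below Psmb5 and Psmb6, Psmb10 makes up 16.4% to 20.2% of its pair, and D50A 3 is the highest point of every gene.

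Microglia are the brain cells best known for immunoproteasome genes. The sum of 10 microglia markers was 326 to 334 CPM in WT, 288 to 349 CPM in the other D50A libraries and 704 CPM in D50A 3, with no marker at 0 in all libraries. D50A 3 was the highest library for 7 of them and the lowest for 1, Csf1r. The sum of 8 blood markers, with Cd3e at 0 in some libraries, was 359 to 528 CPM in WT, 311 to 553 CPM in the other D50A libraries and 2369 CPM in D50A 3, which was the highest for 5 of the 8, the 4 globin genes and Alas2. Markers of mature oligodendrocytes (8 genes) summed to 9505 to 10290 CPM in WT, 10390 to 11490 CPM in the other D50A libraries and 21370 CPM in D50A 3. Markers of astrocytes (7 genes) summed to 1939 to 2004 CPM, 2012 to 2331 CPM and 3692 CPM in the same order. For these lists the sum was thus above the WT range in every D50A library. D50A 3 was the highest for 7 oligodendrocyte and 5 astrocyte markers and the lowest for 1 of each, Mag and Aldh1l1. Markers of endothelial cells (8 genes) summed to 239 to 269 CPM in WT, 225 to 280 CPM in the other D50A libraries and 199 CPM in D50A 3. D50A 3 was the lowest for 5 of them and the highest for 1, Cldn5. Within all of these lists but blood, D50A 3 was thus highest for some markers and lowest for others. Over all genes it was the highest library for 40.0% and the lowest for 44.4%. The part of these cell types in the proteasome values of D50A 3 was not tested.

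The 6 ATPases, Psmc1 to Psmc6, form the ring that unfolds substrates. All 6 had fold changes above 0 in both fits with none called, and the medians were 0.43 with 8 libraries and 0.06 without D50A 3. Psmc5 (ENSMUSG00000020708, chromosome 11, 106256154 to 106263120, plus strand) had 143, 145, 630, 166.02 and 162 CPM in D50A and 135, 152 and 142 CPM in WT. Psmc6 had 65.8, 78.6, 263, 81.5 and 89.2 CPM in D50A and 66.0, 77.1 and 77.2 CPM in WT. Both were highest in D50A 3, at 4.41 and 3.58 times the WT mean. Without it the log2 fold changes were 0.12 for Psmc5 with an SE of 0.08 (edgeR adjusted p = 0.697) and 0.11 for Psmc6 with an SE of 0.11 (edgeR adjusted p = 0.8). The ratio in D50A 3 varied within the ring and was lowest for Psmc4, at 1.78.

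The 11 non-ATPase subunits of the 19S cap receive ubiquitin chains and remove them. None was called. Their median log2 fold change was 0.31 with 8 libraries, with 9 above and 2 below 0, and 0.02 without D50A 3, with 6 above and 5 below. Psmd7, a lid subunit that partners the deubiquitinase Psmd14, had 97.5, 95.5, 193, 95.3 and 95.8 CPM in D50A and 87.6, 97.2 and 90.6 CPM in WT. Psmd11, a lid subunit and the lowest per length of this group, had 61.2, 54.4, 52.7, 52.6 and 50.9 CPM in D50A and 57.4, 49.6 and 54.1 CPM in WT. Psmd3, also of the lid, had 111, 97.0, 73.2, 90.3 and 88.4 CPM in D50A and 113, 102 and 92.4 CPM in WT. D50A 3 was therefore high for Psmd7, among the others for Psmd11 and the lowest library for Psmd3. Without D50A 3 their log2 fold changes were 0.08 for Psmd7, 0.04 for Psmd11 and -0.07 for Psmd3, with SEs of 0.06, 0.08 and 0.09. In D50A 3, 3 of the 11 lay below the WT mean: Psmd2 at 0.904, Psmd3 at 0.715 and Psmd11 at 0.982 times that mean. Psmd2, named here after its values were seen, is the large base subunit that binds ubiquitin-like domains. Psmd11 moved to the other side of the WT mean with relative log expression or upper quartile scaling.

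The 3 chaperones of 19S assembly hold the ATPases until the base is complete. They had fold changes above 0 in both fits, with none called. Psmd5 had 36.9, 40.7, 79.3, 41.9 and 41.7 CPM in D50A and 34.2, 38.3 and 38.1 CPM in WT. Psmd9 had 23.5, 20.7, 40.4, 24.0 and 23.9 CPM in D50A and 22.4, 24.5 and 22.6 CPM in WT. Psmd10, known as gankyrin, had 12.03, 13.4, 64.4, 14.4 and 16.1 CPM in D50A and 12.7, 13.0 and 13.7 CPM in WT. D50A 3 was the highest library for each, at 2.15, 1.74 and 4.90 times the WT mean. Without it the log2 fold changes were 0.14, 0.00 and 0.10, with SEs of 0.08, 0.08 and 0.11. A lincRNA on the other strand covers 25.5% of the exon bases of Psmd9, and no source used here says how reads there were counted.

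The activators replace the 19S cap at the ends of the core. Psme1 and Psme2, the interferon-inducible PA28 alpha and beta, had 27.4, 23.5, 63.9, 23.9 and 24.8 CPM, and 21.3, 17.7, 85.3, 20.4 and 21.0 CPM, in D50A. In WT they had 24.8, 26.02 and 24.1 CPM, and 20.4, 21.8 and 19.9 CPM. Both were high in D50A 3 alone, and a near-identical gene, Psme2b, can share reads with Psme2. Psme3, the nuclear PA28 gamma, had 89.6, 80.3, 112, 79.5 and 87.3 CPM in D50A and 82.4, 87.3 and 84.6 CPM in WT. Psme4 (ENSMUSG00000040850, chromosome 11, 30771726 to 30880361, plus strand), the large activator PA200, had 53.9, 67.7, 36.3, 71.5 and 69.5 CPM in D50A and 67.1, 66.1 and 65.9 CPM in WT. Psmf1 (ENSMUSG00000032869, chromosome 2, 151715812 to 151744186, minus strand), the 20S-binding regulator PI31, had 31.4, 30.6, 18.0, 28.1 and 26.9 CPM in D50A and 29.6, 29.0 and 29.9 CPM in WT. Psme4 and Psmf1 thus went the other way in D50A 3, at 0.547 and 0.611 times the WT mean. Without D50A 3 all 5 genes had log2 fold changes between -0.03 and 0.01, and D50A 1 was the lowest of the 7 libraries for Psme4.

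The core and cap genes were not higher by the same factor in D50A 3. The summed CPM of the 14 constitutive core genes over that of the 17 ATPase and non-ATPase cap genes was 0.664, 0.696, 1.16, 0.774 and 0.749 in D50A and 0.668, 0.687 and 0.717 in WT. D50A 3 was the highest, D50A 4 and D50A 5 were just above the WT range, D50A 2 was within it and D50A 1 was just below it. Per kilobase, the 31 constitutive genes spanned 18.9 CPM for Psmd11 to 109 CPM for Psmc5 in WT, a ratio of 5.76, with a median of 51.6. The SD over these genes of the log2 CPM per kilobase was 0.65, 0.65, 1.13, 0.69 and 0.68 in D50A and 0.62, 0.66 and 0.64 in WT. The spread of levels between the subunits of 1 complex was therefore wider in D50A 3 than in any other library. Ratios to WT in D50A 3 also varied with transcript length over other genes, as given below. The part of length in the core to cap ratio and in this spread was not tested.

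**Figure D4:**
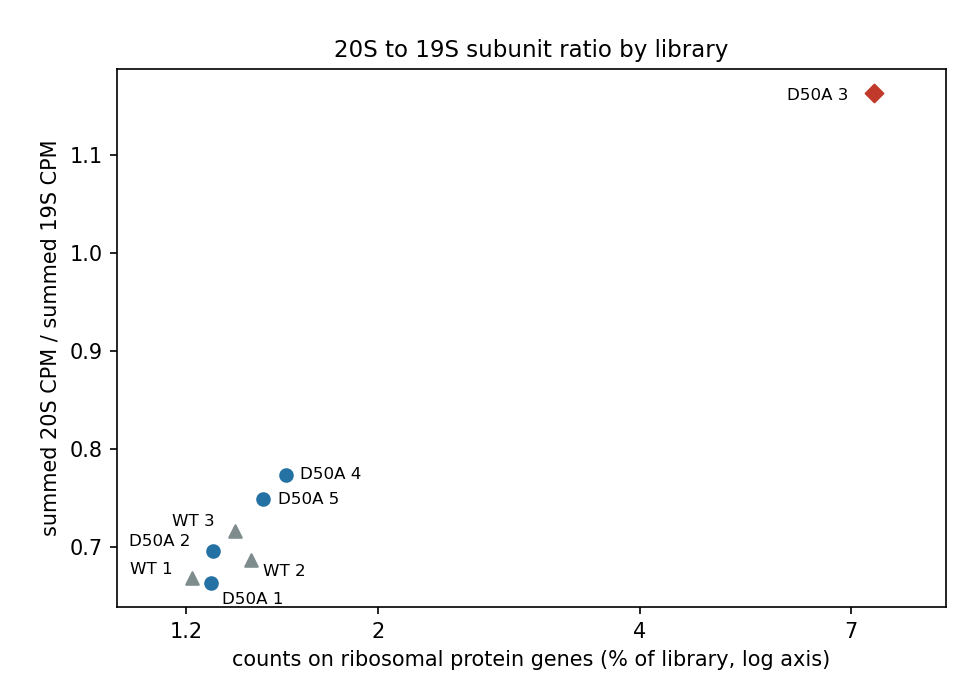
Ratio of the summed CPM of 14 core genes to that of 17 cap genes in each library, against the share of the library's counts on ribosomal protein genes on a log axis. D50A 3 lies apart on both axes, at 1.16 and 7.44%, and the other 7 libraries lie between 0.664 and 0.774.

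Transcript length went with how far a member lay above WT in D50A 3. The members were set beside 12504 genes with a length, counts in every library and a log2 of the mean CPM above 2. Psmb8 and Psmb9 fell short of that level but were kept among the members. The median transcript was 1.53 kb for the members and 3.15 kb for that set of genes. Over the 42 members Spearman's rho between length and the log2 ratio of D50A 3 to the WT mean was -0.53. Over the 12504 genes it was -0.58. These values are given as a description, since genes of 1 library share its depth and base composition. In the other D50A libraries rho over the members was -0.07, -0.04, -0.40 and -0.28, and in WT 0.14, -0.29 and 0.04. The 6 members under 1 kb had a median log2 ratio of 2.04 in D50A 3, and 700 genes of that length had a median of 1.93. The 14 members of 1 to 1.5 kb were at 1.70 beside 1.18 for that set of genes, and the 10 of 1.5 to 2 kb at 1.44 beside 0.64. The 8 of 2 to 3 kb were at 0.60 beside 0.13, and the 4 above 3 kb at 0.05 beside -0.68. Psme4 at 6.49 kb and Psmf1 at 3.81 kb were the lowest members and Psmb6 at 0.798 kb the highest, but Psma2 at 2.91 kb was at 4.80 times the WT mean. With an offset for length in each library, the median log2 fold change of the members was 0.13 with 8 libraries and 0.02 without D50A 3, in place of 0.45 and 0.06. The part of transcript length in these values was not tested further.

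**Figure D5:**
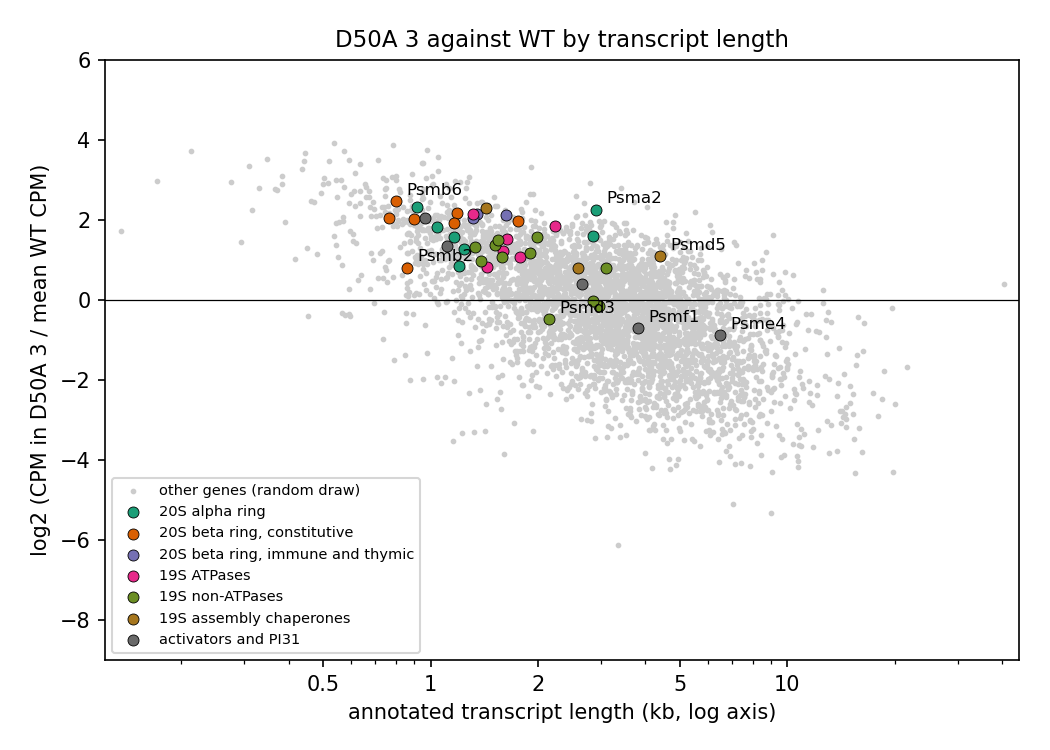
Log2 ratio of D50A 3 to the WT mean against annotated transcript length in kb on a log axis, for a random draw of other genes as small points and the 42 members as large ones coloured by role. Members of up to 1 kb have a median of 2.04 and those above 3 kb a median of 0.05, and the other genes are lower with length too.

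Genes that act with the proteasome were taken from 5 lists, and none of their 42 tested genes was called in either fit. Among 8 other 26S subunits and core chaperones the median log2 fold change was 0.36 with 8 libraries and 0.03 without D50A 3. Psmg4, a core assembly chaperone, had 6.46 ± 0.585 CPM (SD, n = 4, without D50A 3) and 5.60 ± 0.294 CPM (SD, n = 3) in WT, and 26.2 CPM in D50A 3. AI314180, the Ecm29 gene whose product holds core and cap together, had 129 ± 20.6 CPM (SD, n = 4) and 139 ± 8.10 CPM (SD, n = 3), and 103 CPM in D50A 3. The 6 ubiquitin and ubiquitin-activating genes had medians of 0.22 and 0.03. Rps27a, which encodes ubiquitin fused to a ribosomal protein, had 140, 157, 1499, 185 and 182 CPM in D50A and 139, 161 and 153 CPM in WT. Uba1, a ubiquitin-activating enzyme named here after its values were seen, had 344, 296, 142, 262 and 280 CPM in D50A and 334, 292 and 290.3 CPM in WT. D50A 3 was thus the highest library for Rps27a and the lowest for Uba1.

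Of the 8 genes of the Nrf1 pathway, 4 were highest in D50A 3 (Nfe2l2, Ngly1, Maff and Mafk), beside 40.0% of all genes. The other 4 were lowest there (Nfe2l1, Ddi2, Vcp and Mafg), beside 44.4% of all genes. Ngly1, a deglycosylase that processes Nrf1, was at 43.5 CPM in D50A 3 and 24.6 CPM on average in WT, and is named here after its values were seen. The median log2 fold change of the 8 genes was -0.09 with 8 libraries and -0.06 without D50A 3. In the latter fit 1 was above and 7 were below 0, beside 49.4% of all genes above 0. Ddi2, the protease that releases Nrf1, had 69.0, 72.4, 17.1, 64.9 and 69.6 CPM in D50A and 74.1, 71.0 and 76.9 CPM in WT. Nfe2l2, which encodes the related factor Nrf2, had 12.3, 12.1, 15.8, 11.97 and 11.4 CPM in D50A and 12.8, 13.0 and 13.4 CPM in WT. D50A 3 was the lowest library for Ddi2 and the highest for Nfe2l2. Without D50A 3 all 4 D50A libraries were under WT for Nfe2l2, beside 5.8% of all genes. Its difference was then -0.12 ± 0.08 (log2 fold change ± SE, edgeR adjusted p = 0.699). Ubiquitin shuttles and the deubiquitinases and ligases bound to proteasomes (10 genes) had medians of -0.11 and -0.10. Usp14, which trims ubiquitin chains at the cap, had 93.5, 101, 120, 100 and 102 CPM in D50A and 112, 103 and 121 CPM in WT. Without D50A 3 all 4 D50A libraries were under WT for Usp14 too, beside 5.8% of all genes. It was then at -0.17 ± 0.07 (log2 fold change ± SE, edgeR adjusted p = 0.506). Ubqln4, a shuttle factor, had 107 ± 10.4 CPM (SD, n = 4) and 118 ± 6.96 CPM (SD, n = 3), and 60.0 CPM in D50A 3. Among 10 antigen processing genes, which share interferon control with the immunoproteasome, the medians were -0.10 and -0.00. H2-D1, a class I heavy chain, had 48.9, 48.2, 63.8, 45.6 and 47.7 CPM in D50A and 42.1, 36.7 and 37.1 CPM in WT. B2m, its light chain, had 62.4, 62.9, 130, 69.0 and 60.9 CPM in D50A and 60.1, 57.8 and 54.9 CPM in WT. D50A was above WT without overlap for both, beside 3.22% of all genes with 8 libraries and 4.79% without D50A 3. Both genes, like Nfe2l2 and Usp14, were named for the smallest p of their list, which favours such a separation. Without D50A 3 the log2 fold change of H2-D1 was 0.31 with an SE of 0.07 (edgeR adjusted p = 0.191). That of B2m was 0.16 with an SE of 0.07 (edgeR adjusted p = 0.525).

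In D50A 3, 37 tested members lay above the WT mean and 5 below it, and other genes with short transcripts were high there too, as given above. The promoters of the members were searched for the core of the antioxidant response element that Nrf1 binds. Of the 44 members, 37 matched a RefSeq promoter window of GRCm38.p6, from 250 bases before the start site to 50 after. Psma8, Psmb1, Psmb2, Psmc3, Psmd3, Psmd7 and the catalytic Psmb7 matched no window and were not searched. The core TGACNNNGC, read on both strands, was in 6 of the 37 (16.2%), beside 14.0% of 27025 genes. The stretches before the start sites of Psmb5 and Psmb6, catalytic subunits with a match, are shown first, up to the annotated exon or the start site, 5′ to 3′ on the strand of the gene with the match in capitals.
Psmb5, chr14:54618023-54618095, minus strand: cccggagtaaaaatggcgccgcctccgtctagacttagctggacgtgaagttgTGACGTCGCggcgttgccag
Psmb6, chr11:70525257-70525356, plus strand: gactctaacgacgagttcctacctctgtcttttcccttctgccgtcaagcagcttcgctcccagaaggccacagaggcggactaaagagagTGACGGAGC
The other 4 matches follow, and those of Psmc6, Psmd12 and Psme4 read as GCNNNGTCA on the strand shown, since the core lies on the opposite strand.
Psmd9, chr5:123228151-123228175, plus strand: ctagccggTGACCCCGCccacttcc
Psmc6, chr14:45329589-45329613, plus strand: agccagtaGCTAAGTCAggcattgc
Psmd12, chr11:107479278-107479297, plus strand: tctGCTGTGTCAcatttgcc
Psme4, chr11:30771760-30771784, plus strand: ctgcggctGCAGCGTCAccagaaga
The match began 47 bases before the start site in Psmb5, 9 in Psmb6, 31 in Psmd9, 7 in Psme4, 227 in Psmc6 and 247 in Psmd12. These 6 genes included the highest and the lowest member of D50A 3, with ratios to the WT mean of 5.53 for Psmb6, 4.04 for Psmb5, 3.58 for Psmc6, 2.26 for Psmd12, 1.74 for Psmd9 and 0.547 for Psme4. A match is only a description of the letters, and a window without one says nothing of the factor.

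The core of the interferon-stimulated response element, a pair of GAAA runs with 2 bases between them on either strand, was in 4 of the 37 windows (10.8%), those of Psmb3, Psmd4, Psmd9 and Psme1, beside 3.99% of all genes. It is shown for Psme1, an interferon-inducible activator, where it reads as TTTC runs, since it lies on the strand opposite to the gene.
Psme1, chr14:55578495-55578520, plus strand: agctgtgcTTTCGCTTTCccttcccg
Those 4 genes were at 4.13, 2.49, 1.74 and 2.56 times the WT mean in D50A 3. The match of Psme1 began 9 bases after its start site. No match was in the windows of Psmb8, Psmb9, Psmb10 or Psme2, the other interferon-inducible members named here. The CCAAT box was in 37.8% of the member windows, beside 41.1% of all genes, and TATAAA was in 10.8%, beside 15.7%.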

How the data were processed

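RNA from the brains of 5 D50A and 3 WT mice was sequenced, and the table the authors deposited holds raw counts of reads for each gene, which they had not normalized. The tools named, per the submitters' processing notes, are STAR 2.5, HTSeq 0.6.1, CASAVA 1.8 and DESeq2 2, with the build mm10 and in no stated order. The strand setting and annotation release of the counting were not given in the sources used here. Groups came from the genotype label. Counts were tested with edgeR 4.0.16 in R 4.3.3 (quasi-likelihood, filterByExpr, TMM, Benjamini-Hochberg, threshold 0.05) over all genes that passed the filter. CPM uses TMM-scaled library sizes, and an SE is the log2 fold change over the root of the F statistic. Transcript lengths came from GENCODE M21, as the transcript paired with a RefSeq mRNA. Alternatives were DESeq2 1.42.0, limma-voom (limma 3.58.1), other scalings and filters, length offsets and left-out libraries. The test was also run on simulated counts with noise drawn independently for each gene. That check held no library that stands apart as D50A 3 does, and no split in granule cell markers.

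The members, lists and rules were chosen with earlier results of these data known. Values per library were given for the catalytic, inducible and activator genes, the 6 members with the smallest p in each fit, the 3 highest and 3 lowest ratios in D50A 3, untested members, the highest and lowest level per length of each other role, and the 2 genes with the smallest p without D50A 3 from each of 5 pathway lists. One gene that this rule names is not reported here. Depth ran from 13675945 to 24802272 counts per library, and the number of libraries limits the precision of each mean.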

Additional observations from a re-analysis of the deposited data

Results flagged for a closer look

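Within the 5 D50A libraries, D50A 3 lay far from the others, by Dixon's criterion on the gap over the range, for every role and for 17 of the 25 genes given by library. The criterion sets 1 library apart in about 1 of 20 unrelated groups. These genes share the same libraries, and some of the 25 were named for their ratio in D50A 3. The 1 of 20 is therefore no measure for this count. Over all 42 tested members D50A 3 was apart for 35, each time high, and over all genes tested for 38.95%. Summed by role, its levels were 1751 CPM for the alpha ring, 2304 CPM for the constitutive beta genes, 138.9 CPM for the immune and thymic beta genes, 1792 CPM for the ATPases, 1695 CPM for the non-ATPases, 184.1 CPM for the 19S assembly chaperones, 315.8 CPM for the activators and PI31 and 8181 CPM for all 44 genes.

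Among the core genes the values in D50A 3 were 302.5 CPM for Psma2, 397.2 CPM for Psma7, 63.83 CPM for Psmb2, 423.8 CPM for Psmb4, 321.6 CPM for Psmb5, 433.5 CPM for Psmb6, 461.5 CPM for Psmb7, 6.198 CPM for Psmb9 and 128.1 CPM for Psmb10. Among the cap genes, chaperones and activators they were 630.0 CPM for Psmc5, 262.9 CPM for Psmc6, 193.35 CPM for Psmd7, 79.28 CPM for Psmd5, 40.43 CPM for Psmd9, 64.39 CPM for Psmd10, 63.93 CPM for Psme1 and 85.3 CPM for Psme2.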

How the results depend on the processing

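No member was called under any alternative run, and the median fold change of the members kept its sign throughout. It was 0.05 with limma-voom and 0.34 on library size alone with 8 libraries. Of 414 alternative values for 23 named members with 8 libraries, 395 kept their direction and 19 reversed, and without D50A 3 these were 328 and 40 of 368. The cause of the reversals was not tested. Counts of genes called, 0 with edgeR, were 37 with DESeq2, 517 with limma-voom and 1065 without D50A 1 and D50A 3 together with 8 libraries, and 0 to 26 with 1 library left out, the 26 without D50A 1. Without D50A 3 they were 150 with DESeq2, 509 with limma-voom, 85 with no filter, 1 with upper quartile factors, 1 at a threshold of 0.1, and 0 to 1065 with 1 more library left out, the 1065 without D50A 1.

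With 8 libraries, limma-voom gave log2 fold changes of -0.008 for Psmd11, -0.0193 for Psmd9, -0.0467 for Psme1, -0.0652 for Psme2, -0.0404 for Psme3 and 0.0478 for Psme4. Without D50A 1 and D50A 3 these were -0.0137, -0.0043, -0.0394, -0.0555, -0.0261 and 0.0837. Length offsets gave -0.1055 for Psmb2, -0.0305 for Psme1 and 0.0941 for Psme4, and library size alone gave -0.0181 for Psmd11. Without D50A 3, limma-voom gave -0.014 for Psmd9, -0.0368 for Psme1, -0.0266 for Psme3 and 0.0621 for Psme4. Length offsets gave -0.0038 for Psmd9, -0.0518 for Psme1, -0.0028 for Psme3, 0.0546 for Psme4 and 0.0184 for Psmf1. DESeq2 gave -0.0004 for Psmd9 and -0.0009 for Psme3, which relative log expression factors put at -0.0009 too. Upper quartile factors gave 0.0054 for Psme4 and 0.0117 for Psmf1, library size alone 0.0173 and 0.0208, and the filter of at least 1 CPM in 3 libraries 0.0003 for Psmf1.

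With 1 library left out of 8, Psmd11 ran from -0.0379 to 0.0671 and Psme2 from -0.0308 to 0.8318. With 1 left out of 7, the ranges were -0.0278 to 0.0808 for Psma2, -0.0137 to 0.0895 for Psmd11, -0.1412 to 0.0015 for Psmd3, -0.025 to 0.0503 for Psmd9, -0.0394 to 0.0397 for Psme1, -0.0563 to 0.0266 for Psme2, -0.0261 to 0.0258 for Psme3, -0.0502 to 0.0837 for Psme4 and -0.0327 to 0.0371 for Psmf1. No paired analysis was possible because libraries are numbered by order of deposit only. Depth limits Psmb8 and Psmb9, and leaves Psma8 and Psmb11 untested.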
